A study of Mus musculus with 137 samples.

Results

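Control bone marrow-derived macrophages were compared between 24 h and 6 h of exposure to lipopolysaccharide (LPS, a bacterial cell wall component) together with interferon-gamma (IFN-γ), in 3 cohorts called KO1, KO2 and KI after the Beclin1 mutants they were collected with. The controls at 24 h and 6 h make up 45 of the 137 libraries in the series, taken by their labels. KO1 gave 9 libraries at 24 h and 9 libraries at 6 h, which are 3 repeats of each of the sample numbers 33, 34 and 35, called cultures here, and were summed per culture. KO2 gave 7 libraries at 24 h and 8 libraries at 6 h, and KI gave 6 libraries at each of these times. The KO1 and KO2 controls were Beclin1flox/flox-LysM-Cre-, so they carry loxP-flanked Beclin1 alleles and no recombinase, and the KI controls were labelled WT and stand beside Beclin1F121A/F121A macrophages. Marrow came from mice aged 7 weeks and was cultured for 7 days with 20 ng/ml M-CSF, then given 100 ng/ml LPS and 100 ng/ml IFN-γ. Control libraries at 0 h, before either agent, served to sort the genes by time course, and the 46 mutant libraries at 24 h and 6 h served for a single comparison of genotypes. Nothing in the labels says whether the KO2 and KI libraries, or the KO1 cultures, come from separate mice, so p-values measure the spread between these samples, which may be technical.

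LPS is recognised by Toll-like receptor 4, which activates the transcription factors NF-κB, AP-1 and IRF3, and IFN-γ acts through its receptor and JAK kinases. Given together they turn macrophages into a classically activated state, with an early burst of cytokines, chemokines and interferon-induced genes. The burst is limited over the following hours by inhibitors that NF-κB itself induces, by decay of unstable mRNAs and by anti-inflammatory cytokines, while metabolism, antigen presentation and protein folding are remodelled. Levels below are in CPM, counts scaled to library size and corrected by TMM factors, from bulk cultures, in which fewer cells of a type and less RNA per cell cannot be told apart. A gene was called changed in a cohort where the Benjamini-Hochberg adjusted p of edgeR's quasi-likelihood test over all genes tested there was under 0.05.

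Library totals were 3028618 to 4546207 counts at 24 h and 2105058 to 3128741 counts at 6 h in KO1, 4612417 to 15627379 at 24 h and 3400367 to 7214688 at 6 h in KO2, and 6247816 to 11786453 at 24 h and 4613210 to 10422416 at 6 h in KI. Of 8 macrophage markers, 7 were tested in every cohort, and their summed level was 15831 to 20061 CPM at 24 h against 20624 to 33451 CPM at 6 h over the 3 cultures of KO1. In KO2 the same sum was 18651 to 27295 CPM at 24 h against 26638 to 37823 CPM at 6 h, and in KI it was 20472 to 26546 CPM at 24 h against 49522 to 63314 CPM at 6 h. Lyz2 and Cd14 had the highest levels, up to 55157 and 10363 CPM in KI, against 2786 CPM for Csf1r, the next there. Of the 7 markers, 1 (Csf1r) was higher at 24 h in all 3 cohorts and 0 were lower in all 3. Summed markers of B cells, T and NK cells, mast cells, erythroid cells and stromal cells each stayed at or below 18.2 CPM. The share of counts from the mitochondrial genome was 1.85% to 4.0% at 24 h against 4.35% to 7.08% at 6 h in KO1, 2.49% to 4.56% at 24 h against 4.29% to 6.74% at 6 h in KO2, and 1.80% to 2.53% at 24 h against 3.15% to 5.40% at 6 h in KI. The 6 KI libraries at 24 h fell into a set with odd replicate numbers and a set with even ones, and the axis between them held 59.3% of the variance in that group. In the odd set Tnf stood at 659 to 883 CPM and Igf1 at 9.68 to 12 CPM, against 155 to 207 CPM and 3.14 to 3.66 CPM in the even set. Library 5 of the KI group at 6 h and library 2 of the KO2 group at 6 h also stood apart from their groups in several genes. Without those 2 libraries 95.6% of the changes shared by the cohorts were called again, and with KI summed by odd and even number 97.7% were. The KI library 1 at 6 h has 2 different times in its labels, and its expression correlated with the other 6 h libraries at r = 0.994 and with the 24 h libraries at r = 0.898.

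Between 6 h and 24 h the controls lost many cytokine, chemokine and NF-κB feedback transcripts that had risen at 6 h, and gained transcripts for arginase 1, CD1d, class II antigen presentation, protein folding and metabolism. In KO1 3928 of 13693 tested genes were higher at 24 h (28.7%) and 3551 were lower (25.9%). In KO2 3346 of 10794 were higher (31%) and 3025 were lower (28%), and in KI 3862 of 11500 were higher (33.6%) and 3655 were lower (31.8%). Over the 10612 genes tested in all 3 cohorts, 2013 were higher at 24 h in every cohort (19%) and 1449 were lower in every cohort (13.7%). A further 200 genes were called in all 3 cohorts with differing signs (1.88%; 117 without culture 33), and 1366 were called in none. Of the shared changes, 791 higher and 760 lower genes differed at least 2-fold in every cohort, and 119 higher and 225 lower genes at least 4-fold. Counts per gene list below are to be read beside the 19% and 13.7% over all 10612 genes. Counts within a single cohort are to be read beside the shares of that cohort. Scaling by library size alone, with no TMM factor, gave 2653 higher and 976 lower shared genes, and it moved the median log2 fold change over all tested genes to 0.45 in KO2 and 0.34 in KI, against 0.07 and 0.02 with TMM.

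**Figure D1:**
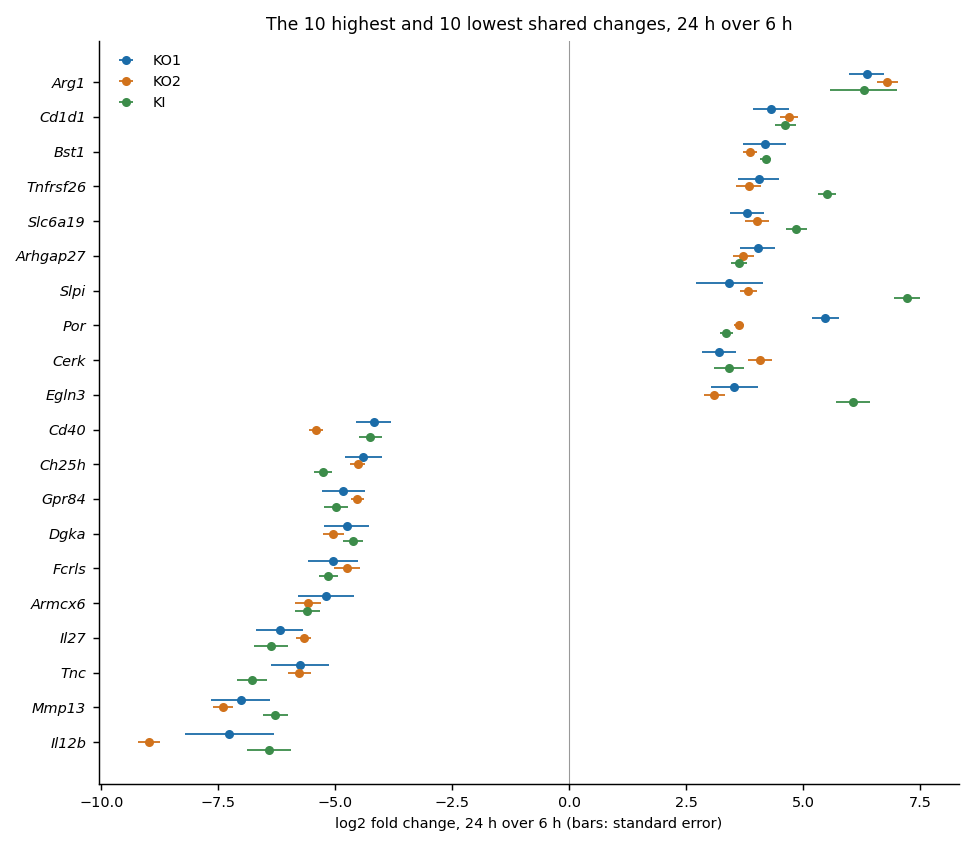
Log2 fold change of 24 h over 6 h (x axis) for the 10 highest and 10 lowest shared changes by the smallest size in any cohort, among genes whose log2 CPM averaged 3 or more. Points are the 3 cohorts and bars are standard errors; Arg1 lies between 6.29 and 6.79 and Il12b between -8.99 and -6.42.

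Calls at 6 h against 0 h divided the shared changes into time classes. At 6 h 2317 genes were higher than at 0 h in all 3 cohorts (21.8% of 10612), and 2870 were lower (27%). Of the 2317 that were higher at 6 h, 1039 (44.8%) were lower at 24 h than at 6 h in every cohort, 75 (3.24%) were higher still, and 107 were called in none. Of the 2870 that were lower at 6 h, 1337 were higher at 24 h than at 6 h in every cohort (46.6%) and 51 were lower still. Both comparisons use the 6 h libraries, so these shares are a description and carry no test. The classes held 1012 resolving genes (up at 6 h and down by 24 h), 1273 recovering genes (down at 6 h and back up by 24 h), 230 late-rising genes, 75 that rose further, 116 late-falling genes and 51 that fell further. Late-rising genes were higher at 24 h than at 0 h in every cohort and higher at 6 h than at 0 h in none, and late-falling genes were lower at 24 h than at 0 h in every cohort and lower at 6 h than at 0 h in none. Genes that met these definitions were not counted as recovering or resolving. The other 705 shared changes met none of these definitions. The smaller classes depended on the KO1 cultures: without culture 33 there were 48 genes that rose further, 70 late-falling genes and 32 that fell further, and without culture 34 the last of these numbered 30. Scaling moved large and small classes: under library size alone there were 472 resolving, 2313 recovering and 88 late-rising genes, 48 that rose further and 99 that fell further.

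Resolution was partial for many of these genes. Of the 1012 resolving genes, 347 were still higher at 24 h than at 0 h in all 3 cohorts, and 131 were called in no cohort. Their median log2 fold change of 24 h over 0 h was 0.48 in KO1, 0.57 in KO2 and 0.72 in KI, beside 2.16, 2.02 and 2.41 for 6 h over 0 h. A further 27 genes rose at 6 h and ended lower than at 0 h in all 3 cohorts. The definitions place these among the late-falling genes. Of the 1273 recovering genes, 219 were still lower than at 0 h in every cohort and 314 were called in none. Among the 230 late-rising genes, 64 had been lower at 6 h than at 0 h in all 3 cohorts, 97 in 1 or 2 cohorts and 69 in none.

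**Figure D2:**
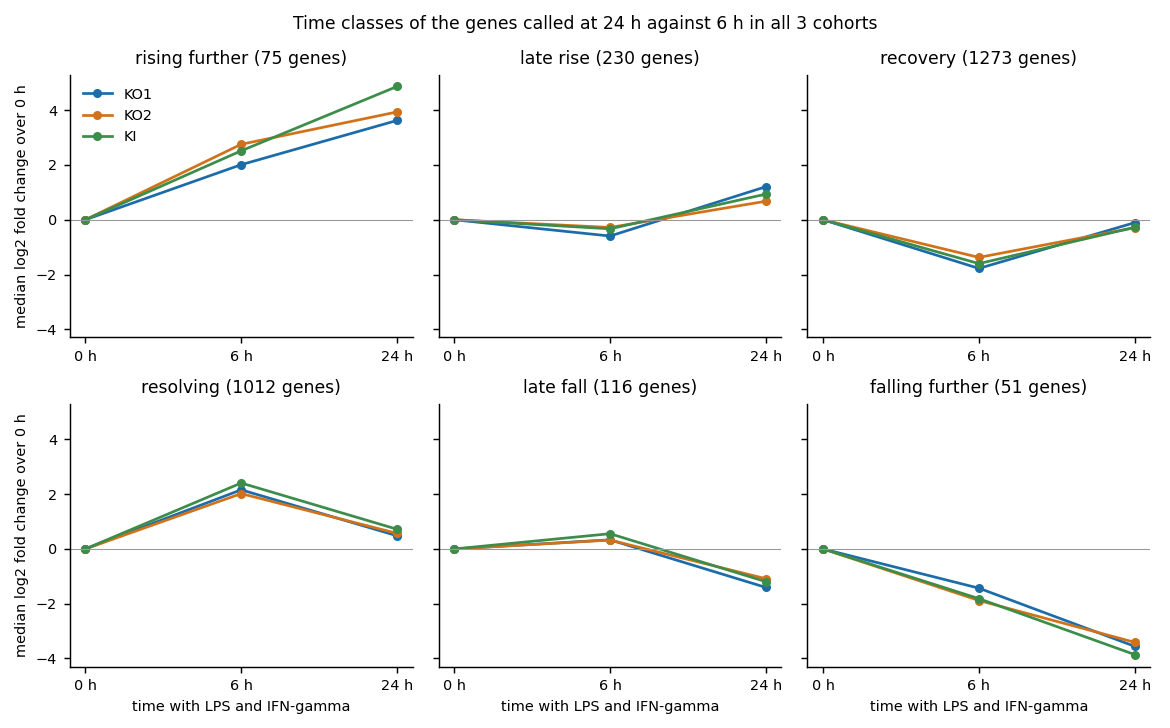
Median log2 fold change over 0 h (y axis) at 0 h, 6 h and 24 h for the genes of each time class, with a line for each cohort. Resolving genes had medians of 2.02 to 2.41 at 6 h and 0.48 to 0.72 at 24 h.

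Promoters are shown for the resolving genes Il12b, Mmp13 and Tnc, which lead that class in the plot of the highest and lowest shared changes, and for the late-rising genes Por and Egln3 of the same plot. Arg1, Cd1d1 and Tnfrsf26 rank above Por and Egln3 among the late-rising genes, but no promoter was printed for them. Promoters are as the RefSeq promoter table holds them on build GRCm38.p6, each running from 250 bases before the annotated start to 50 bases after it. The windows are chr11:44399813-44400112 (plus strand) for Il12b, chr9:7272264-7272563 (plus strand) for Mmp13, chr4:64046966-64047265 (minus strand) for Tnc, chr5:135688895-135689194 (plus strand) for Por and chr12:54203825-54204124 (minus strand) for Egln3, all read 5′ to 3′ along the gene. Capitals mark matches to any of 7 motifs searched on both strands: the NF-κB consensus, the interferon-stimulated response element GAAANNGAAA, the gamma-activated site TTCNNNGAA, the AP-1 site TGANTCA, the cAMP response element TGACGTCA, the hypoxia response element ACGTG and the CCAAT box.
Il12b: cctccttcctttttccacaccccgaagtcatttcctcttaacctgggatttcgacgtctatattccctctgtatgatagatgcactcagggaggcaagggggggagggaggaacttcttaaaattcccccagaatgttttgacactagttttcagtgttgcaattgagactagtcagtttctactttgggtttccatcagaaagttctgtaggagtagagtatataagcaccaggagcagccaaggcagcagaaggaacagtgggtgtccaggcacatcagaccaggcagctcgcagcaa
Mmp13: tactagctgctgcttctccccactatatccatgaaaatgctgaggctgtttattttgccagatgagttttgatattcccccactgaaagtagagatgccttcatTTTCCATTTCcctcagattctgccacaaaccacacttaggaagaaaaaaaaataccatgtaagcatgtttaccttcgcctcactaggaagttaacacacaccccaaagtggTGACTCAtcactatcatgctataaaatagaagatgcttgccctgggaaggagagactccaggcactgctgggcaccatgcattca
Tnc: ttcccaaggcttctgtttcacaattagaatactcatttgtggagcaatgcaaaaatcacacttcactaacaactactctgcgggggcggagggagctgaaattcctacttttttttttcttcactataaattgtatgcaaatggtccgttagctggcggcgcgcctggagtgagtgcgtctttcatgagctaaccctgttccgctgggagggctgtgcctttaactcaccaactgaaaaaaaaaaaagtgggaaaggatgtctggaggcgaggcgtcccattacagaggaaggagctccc
Por: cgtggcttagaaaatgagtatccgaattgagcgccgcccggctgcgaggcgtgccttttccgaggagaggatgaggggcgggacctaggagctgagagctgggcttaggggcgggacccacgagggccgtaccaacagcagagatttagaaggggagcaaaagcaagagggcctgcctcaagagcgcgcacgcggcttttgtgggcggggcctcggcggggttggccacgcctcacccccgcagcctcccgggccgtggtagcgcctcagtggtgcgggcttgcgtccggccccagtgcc
Egln3: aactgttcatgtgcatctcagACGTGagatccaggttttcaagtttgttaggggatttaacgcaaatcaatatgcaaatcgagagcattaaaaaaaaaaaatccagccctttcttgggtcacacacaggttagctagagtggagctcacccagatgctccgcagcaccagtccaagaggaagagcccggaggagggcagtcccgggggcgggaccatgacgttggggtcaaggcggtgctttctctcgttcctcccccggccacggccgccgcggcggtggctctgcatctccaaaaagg
In Mmp13 an interferon-stimulated response element lies on the minus strand from -146 to -137 and an AP-1 site from -35 to -29, and in Egln3 a hypoxia response element lies from -229 to -225. None of the 7 motifs was found in the windows of Il12b, Tnc or Por, which says only that these letters are absent there. Over the 27025 promoters in the table, 4.35% held the NF-κB consensus, 3.49% the interferon-stimulated response element, 8.47% the gamma-activated site, 7.93% the AP-1 site, 1.88% the cAMP response element, 19.7% the hypoxia response element and 37.9% the CCAAT box. Matches to different motifs may overlap. Promoters were matched for 8198 of the 10612 genes (77.3%, where 80% was required), so no share per time class is given.

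Cytokine transcripts came down together: 12 of 18 tested members were lower at 24 h in all 3 cohorts and none was higher, with median log2 fold changes of -3.04, -2.41 and -2.01 in KO1, KO2 and KI, against -0.00, 0.07 and 0.02 over all tested genes. Il12b, the shared p40 subunit of interleukins 12 and 23, had the largest fall. In KO1 it stood at 262, 50.5 and 54.9 CPM at 24 h in cultures 33, 34 and 35, against 11817, 38012 and 6740.2 CPM at 6 h. In KO2 it stood at 2.83 to 4.79 (median 3.71) CPM at 24 h, against 1319 to 2919.8 (median 1744) CPM at 6 h. In KI it stood at 207 to 286 (median 221) CPM at 24 h, against 18543 to 23157 (median 19597) CPM at 6 h. No sample at 24 h reached the lowest 6 h sample in any cohort, and all 3 cohorts remained above their 0 h level by 4.0 to 6.65 on the log2 scale. The log2 fold changes were -7.27 ± 0.96 (KO1), -8.99 ± 0.24 (KO2) and -6.42 ± 0.47 (KI) (SE), with a largest adjusted p of 5.08e-06, and the KO1 value was -8.72 without culture 33 and -5.86 without culture 34.

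Tumour necrosis factor, the first cytokine of the LPS response, fell less far. Tnf stood at 325, 232 and 372 CPM at 24 h in the KO1 cultures, against 1361, 3860.1 and 2392 CPM at 6 h. The KO2 levels of Tnf were 240.0 to 367 (median 292) CPM at 24 h, against 2499 to 3885 (median 2756) CPM at 6 h. The KI levels of Tnf were 155 to 883 (median 433) CPM at 24 h, against 4142 to 6546 (median 5528) CPM at 6 h. The groups did not overlap in any cohort, although the KI range at 24 h spans the odd and even sets. Its log2 fold changes were -3.04 ± 0.38 (KO1), -3.32 ± 0.14 (KO2) and -3.52 ± 0.27 (KI), with -2.42 in KO1 without culture 34. Il27, a cytokine subunit that restrains T cells, fell by similar amounts in every cohort, with log2 fold changes of -6.19 ± 0.50 (KO1), -5.68 ± 0.16 (KO2) and -6.37 ± 0.36 (KI). Il6 fell with -4.99 ± 0.68 (KO1), -5.16 ± 0.18 (KO2) and -2.32 ± 0.23 (KI), and the interleukin 12 subunit Il12a with -4.67 ± 0.52 (KO1), -3.15 ± 0.28 (KO2) and -2.27 ± 0.16 (KI) (-3.71 in KO1 without culture 34). In this and the following paragraphs a pair of bounds gives the lowest and highest log2 fold change over the 3 cohorts. Tnfsf15, a TNF family ligand, was lower (-4.68 to -3.73) and so was Il18 (-2.75 to -1.65). The anti-inflammatory cytokine Il10 fell as well, with log2 fold changes of -2.17 ± 0.69 (KO1), -4.44 ± 0.23 (KO2) and -1.63 ± 0.28 (KI), but its KO1 groups overlapped, and without culture 33 the KO1 value was -1.81 with an adjusted p of 0.121 (-2.83 without culture 35). Ifnb1, interferon-beta, was tested in KO1 and KI only, at -3.05 ± 0.60 and -4.99 ± 0.45.

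The 2 interleukin 1 genes did not follow this order in every cohort. Il1b fell in KO1 and KO2 with log2 fold changes of -1.62 ± 0.53 and -1.84 ± 0.18, while KI gave 0.46 ± 0.24 with an adjusted p of 0.0873. Il1a was called in all 3 cohorts, lower in KO1 (-3.51) and KO2 (-2.60) and higher in KI (0.47). Ptgs2, the inducible cyclooxygenase, fell in KO1 (-2.47) and KO2 (-1.93), and was 0.09 ± 0.33 in KI with an adjusted p of 0.82. For the members called with differing signs the cohort difference was itself tested, as given below.

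Of 20 chemokines tested, 11 were lower at 24 h in all 3 cohorts and none was higher. Ccl22, which recruits T cells, fell with -3.53 ± 0.76 (KO1), -6.87 ± 0.26 (KO2) and -5.58 ± 0.18 (KI) (-2.82 in KO1 without culture 34), and Cx3cl1, a membrane-bound chemokine, with -4.89 ± 1.07 (KO1), -5.77 ± 0.72 (KO2) and -5.53 ± 0.58 (KI). Ccl3 and Ccl4, which attract monocytes and T cells, were lower (-4.33 to -2.87 and -3.34 to -2.05), and Ccl9 fell (-6.36 to -3.72). The neutrophil attractants Cxcl1 and Cxcl2 fell far in KO1 (-5.28 and -3.51) and KO2 (-4.31 and -3.97) and less far in KI, at -0.77 ± 0.15 and -1.06 ± 0.10. The KO1 value of Cxcl1 ran from -6.33 without culture 33 to -3.03 without culture 35, and that of Cxcl2 from -4.40 without culture 33 to -2.41 without culture 35. Summed neutrophil markers stood at 27.6 to 34.9 CPM at 24 h against 113 to 198 CPM at 6 h in KO1, 8.15 to 22.8 CPM at 24 h against 9.72 to 19.8 CPM at 6 h in KO2 and 10.8 to 15.6 CPM at 24 h against 24.4 to 33.7 CPM at 6 h in KI, and their part in the result was not tested.

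Some chemokines induced by interferon were not called. Cxcl10, a ligand of CXCR3, stood at 9256, 8243 and 6660.2 CPM at 24 h in the KO1 cultures, against 8003, 6701 and 13801 CPM at 6 h. In KO2 Cxcl10 was at 3545 to 6269 (median 4744) CPM at 24 h, against 4326 to 6276 (median 5022) CPM at 6 h. In KI it was at 5704 to 7485 (median 6401) CPM at 24 h, against 4101 to 6956 (median 5937) CPM at 6 h. The groups overlapped in each cohort, and the log2 fold changes of -0.24 ± 0.54 (KO1), -0.15 ± 0.17 (KO2) and 0.15 ± 0.13 (KI) were called in none, although levels were 9.66 to 12.13 above 0 h on the log2 scale. Ccl5 was not called either, at 1.94 ± 1.12 (KO1), 0.25 ± 0.16 (KO2) and 0.44 ± 0.20 (KI). Its 24 h samples all lay above its 6 h samples in KO1 and KI, and the groups overlapped in KO2. Cxcl9, another CXCR3 ligand, fell with -1.43 ± 0.42 (KO1), -3.04 ± 0.15 (KO2) and -3.30 ± 0.39 (KI), and without culture 34 its KO1 value was -1.14 with an adjusted p of 0.0863. Nos2, which makes nitric oxide, was called only in KI, at -0.31 ± 0.40 in KO1, -0.11 ± 0.19 in KO2 and 0.88 ± 0.31 in KI.

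**Figure D3:**
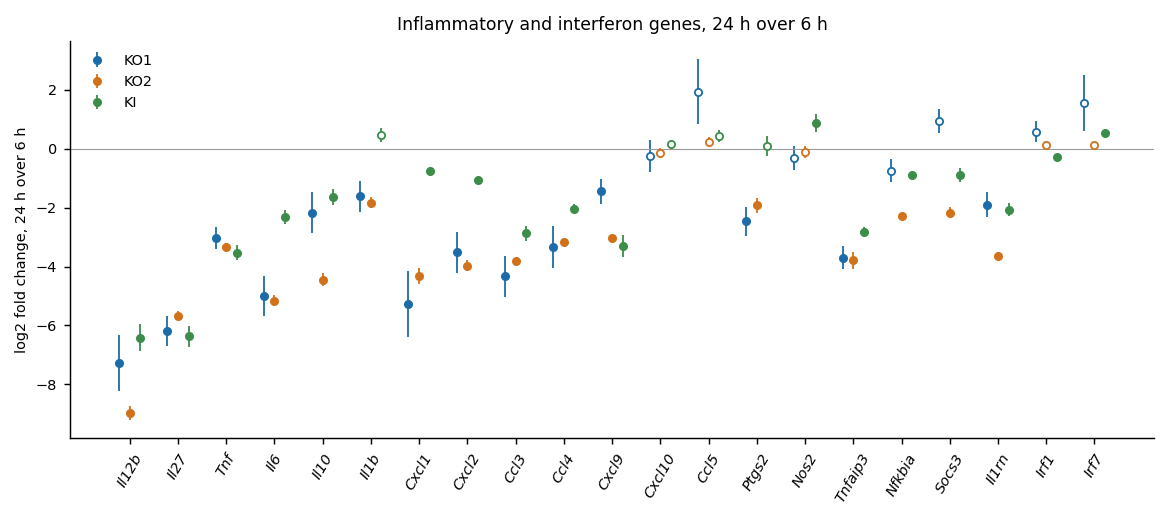
Log2 fold change of 24 h over 6 h (y axis, bars are standard errors) for inflammatory and interferon genes in the 3 cohorts; filled points were called and open points were not. Il12b, Il27, Tnf and Il6 lie below -2 in every cohort, and the Cxcl10 points lie between -0.24 and 0.15.

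Regulators of NF-κB fell with its targets. Of 18 tested subunits and inhibitors, 12 were lower at 24 h in all 3 cohorts, all of them resolving genes, and none was higher. The medians were -1.09, -2.18 and -1.34 in KO1, KO2 and KI. The subunits Rel and Nfkb1 were lower (-3.57 to -2.61 and -3.10 to -2.21). Tnfaip3, which encodes the ubiquitin-editing inhibitor A20, fell with -3.70 ± 0.40 (KO1), -3.79 ± 0.27 (KO2) and -2.83 ± 0.17 (KI), and Tnip3, an A20-binding inhibitor, with -3.17 ± 0.38 (KO1), -4.95 ± 0.11 (KO2) and -4.55 ± 0.14 (KI). Nfkbia, the inhibitor IκBα, was called in KO2 (-2.28) and KI (-0.89), and in KO1 it was -0.75 ± 0.39 with an adjusted p of 0.113.

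Feedback genes outside NF-κB divided: of 21 tested, 6 were lower and 3 were higher in all 3 cohorts. The MAP kinase phosphatase Dusp2 fell with -3.68 ± 0.42 (KO1), -7.03 ± 0.24 (KO2) and -3.91 ± 0.34 (KI) and Dusp16 with -2.41 ± 0.37 (KO1), -2.21 ± 0.15 (KO2) and -2.01 ± 0.11 (KI). Dusp6, a phosphatase specific for ERK, rose with 3.10 ± 0.34 (KO1), 2.88 ± 0.14 (KO2) and 4.11 ± 0.18 (KI) after having been lower at 6 h than at 0 h. Il1rn, the interleukin 1 receptor antagonist, fell (-3.64 to -1.89). Irak3, an inhibitor of Toll-like receptor signalling, rose by 0.76 to 1.59, and Tsc22d3, an inhibitor of NF-κB known as GILZ, by 1.09 to 4.14. Socs3, an inhibitor of cytokine receptors, was called lower in KO2 (-2.17) and KI (-0.89) and gave 0.96 ± 0.41 in KO1 with an adjusted p of 0.0539. Among 16 immediate-early factors, Nr4a1, an orphan nuclear receptor, fell (-5.55 to -2.42), while Jun and Klf10 rose by 2.06 to 2.54 and 1.23 to 3.46, and the other 13 were not called alike.

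Of 19 Toll-like receptor genes and adaptors, 5 were lower in all 3 cohorts and 1 was higher. Tlr1 and Tlr7, which sense lipoproteins and single-stranded RNA, fell (-2.35 to -1.36 and -2.47 to -1.53), and the adaptor Myd88 fell (-1.97 to -0.99). Tlr13, a receptor for bacterial ribosomal RNA, rose with 2.66 ± 0.36 (KO1), 3.08 ± 0.21 (KO2) and 4.15 ± 0.16 (KI), and it had been lower at 6 h than at 0 h (-5.41 to -3.82). Of 28 cytokine and chemokine receptors, 5 were higher and 5 were lower in every cohort, close to the shares over all genes (19% and 13.7%). Il21r and the chemokine receptor Ccr1 rose by 2.39 to 3.91 and 1.63 to 4.21, and Ccrl2 and Csf2rb fell (-2.59 to -1.60 and -1.64 to -1.37), with -1.55 for Ccrl2 in KO1 without culture 35. Of 14 inflammasome genes, 5 fell and 1 rose: Nlrp3 fell (-3.19 to -1.08) and its adaptor Pycard fell (-3.34 to -2.14), while Nlrc4 rose by 0.77 to 1.05. Without culture 33 the KO1 value of Nlrc4 was 0.83 with an adjusted p of 0.0792, and without culture 34 it was 0.59 with an adjusted p of 0.204. Under library size alone the KO2 median of the cytokine receptors was 0.18, against -0.18 with TMM, and that of the Toll-like receptors was 0.17, against -0.22. The KI median of the Toll-like receptors was 0.16 under library size alone, against -0.16 with TMM.

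Of 33 type I interferon-stimulated genes, 26 were lower at 24 h in KO2, 26 in KI and 6 in KO1, with medians of -1.06 in KO2, -0.98 in KI and -0.45 in KO1. Over all tested genes 28% were lower in KO2, 31.8% in KI and 25.9% in KO1. The 6 in KO1 were the ones lower in all 3 cohorts, and 1 gene, Bst2, was higher in all 3 (0.83 to 3.37). The RNA sensor Ifih1 fell with -2.92 ± 0.51 (KO1), -2.72 ± 0.17 (KO2) and -3.67 ± 0.13 (KI) and the kinase Eif2ak2 fell (-1.74 to -1.11). Trim30a fell (-1.62 to -1.29) and Oas2 (-1.36 to -1.06). Without culture 33 the KO1 values were -1.33 for Trim30a (adjusted p 0.0706) and -1.18 for Oas2 (adjusted p 0.195), and without culture 35 Oas2 was at -1.03 (adjusted p 0.155). Irf1 was called in KI alone, at -0.30, and at 0.04 there under library size alone.

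Among 26 genes typical of IFN-γ, 4 rose and 5 fell in every cohort, again close to the 19% and 13.7% over all genes. The 4 that rose further were the GTPases Gbp8 and Igtp, the tryptophan-degrading enzyme Ido1 and Il18bp, which binds interleukin 18. Gbp8 rose with 2.60 ± 0.41 (KO1), 3.41 ± 0.17 (KO2) and 2.32 ± 0.18 (KI), and Gbp10, which stands outside this list, with 2.33 ± 0.41 (KO1), 3.35 ± 0.22 (KO2) and 2.15 ± 0.17 (KI); both belong to a family of closely related genes, so reads may be shared among its members. Ido1 rose with 2.82 ± 0.51 (KO1), 2.09 ± 0.22 (KO2) and 2.82 ± 0.20 (KI) (3.62 in KO1 without culture 35). Il18bp rose by 1.70 to 1.92, and its KO1 value was 1.69 without culture 33 (adjusted p 0.125) and 1.62 without culture 34 (adjusted p 0.0647). Irf8, a transcription factor of the myeloid lineage, fell with -2.72 ± 0.34 (KO1), -3.43 ± 0.13 (KO2) and -4.08 ± 0.13 (KI).

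Genes for class II antigen presentation were higher at 24 h: 6 of 9 tested rose in all 3 cohorts and 1 fell, with medians of 1.23, 0.76 and 1.80 in KO1, KO2 and KI. H2-Oa, a modulator of peptide loading, rose with 3.81 ± 0.54 (KO1), 3.99 ± 0.40 (KO2) and 5.41 ± 0.34 (KI), and its KO1 value lay between 3.14 without culture 34 and 4.90 without culture 35. H2-Aa, H2-Eb1 and the invariant chain Cd74 rose by 1.18 to 2.76, 1.28 to 3.17 and 1.23 to 1.96. The KO1 calls of these 3 were lost without culture 33, at 1.34, 1.61 and 0.99 (adjusted p 0.128, 0.0682 and 0.219), and without culture 34, at 1.30, 1.65 and 1.12 (adjusted p 0.107, 0.051 and 0.107). The member that fell was Ciita, the activator of class II transcription, at -1.41 ± 0.59 (KO1), -0.52 ± 0.21 (KO2) and -0.35 ± 0.14 (KI). Its KO1 call was lost without any one of the 3 cultures, at -1.32, -1.23 and -1.59 without cultures 33, 34 and 35 in turn, and under library size alone it was called in no cohort. With libraries of conflicting labels left out, the KO1 call was lost too, at -1.42 (adjusted p 0.0512). The KO2 call was also lost with the replicate block, at -0.44 (adjusted p 0.067), and the KI call with KI summed by odd and even number, at -0.31 (adjusted p 0.0908), with libraries of conflicting labels left out, at -0.30 (adjusted p 0.0613), and with no filter, at -0.24 (adjusted p 0.158). Summed dendritic cell markers were 68.2 to 88.6 CPM at 24 h against 103 to 198 CPM at 6 h in KO1, 9.69 to 12.6 CPM at 24 h against 24.3 to 37.9 CPM at 6 h in KO2 and 75.7 to 210.1 CPM at 24 h against 82.8 to 118 CPM at 6 h in KI, and their part in the class II result was not tested. In KI at 24 h the odd set held 75.7 to 99.2 CPM and the even set 152 to 210.1 CPM. The highest marker, Ccr7, reached 169.5, 22.4 and 201.6 CPM in KO1, KO2 and KI.

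Of 20 genes for class I molecules and peptide loading, 6 rose and 1 fell in all 3 cohorts. Tapbpl, a peptide editor, rose by 0.71 to 1.80 and H2-T22 by 1.53 to 2.34. H2-K1 and the trimming peptidase Erap1 rose by 0.69 to 1.54 and 0.86 to 0.99. The KO1 calls of H2-T22, H2-K1 and Erap1 were lost without culture 33, at 2.03, 1.35 and 0.87, and without culture 34, at 1.68, 1.35 and 0.89, and that of Erap1 also without culture 35, at 0.84. Of 10 co-stimulatory and checkpoint molecules, 4 fell and none rose in every cohort. Cd40, the receptor for the T cell ligand CD154, fell with -4.18 ± 0.38 (KO1), -5.42 ± 0.15 (KO2) and -4.26 ± 0.25 (KI), and Icosl and Cd86 fell (-4.41 to -2.19 and -1.89 to -0.90). In KO1 Cd86 was at -1.22 without culture 33 (adjusted p 0.0821) and -0.87 without culture 34 (adjusted p 0.176). Cd274, the checkpoint ligand PD-L1, was called only in KI, at 0.99.

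Among genes whose log2 CPM averaged 3 or more, the shared gain with the highest smallest value over the cohorts was in Arg1, arginase 1, which competes with Nos2 for arginine. In KO1 Arg1 stood at 197, 119 and 157 CPM at 24 h, against 2.16, 1.13 and 2.48 CPM at 6 h. In KO2 Arg1 stood at 65.5 to 95.3 (median 82.2) CPM at 24 h, against 0.263 to 1.73 (median 0.496) CPM at 6 h. In KI Arg1 stood at 4.09 to 67.4 (median 23.8) CPM at 24 h, against 0.140 to 1.01 (median 0.271) CPM at 6 h. All 24 h samples lay above all 6 h samples, and in KI the odd set held 4.09 to 6.0 CPM and the even set 41.6 to 67.4 CPM. The log2 fold changes were 6.35 ± 0.38 (KO1), 6.79 ± 0.22 (KO2) and 6.29 ± 0.71 (KI), with a largest adjusted p of 1.16e-09. Of 13 arginine and nitric oxide genes, 5 rose and 2 fell in every cohort. Spr, which completes synthesis of the cofactor tetrahydrobiopterin, rose by 1.39 to 2.73, while Gch1, the first enzyme of that pathway, fell (-2.08 to -1.47). Ddah2 fell (-2.20 to -1.39) with overlapping groups in all 3 cohorts, and its KO1 value was -3.87 without culture 33 and -1.77 without culture 34 (adjusted p 0.0935).

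Cd1d1, which presents lipids to natural killer T cells, was the next of the late-rising genes. It stood at 41.8, 36 and 50.2 CPM at 24 h in the KO1 cultures, against 1.85, 2.10 and 2.48 CPM at 6 h. KO2 had 69.8 to 90.9 (median 82.5) CPM at 24 h, against 1.76 to 4.16 (median 3.13) CPM at 6 h. KI had 58.3 to 79.9 (median 68.5) CPM at 24 h, against 1.29 to 4.01 (median 2.63) CPM at 6 h. The groups did not overlap, and the log2 fold changes were 4.31 ± 0.38 (KO1), 4.69 ± 0.19 (KO2) and 4.62 ± 0.22 (KI). Por, the electron donor of microsomal cytochromes P450, had been lower at 6 h than at 0 h (-3.94 to -2.51). At 24 h Por stood at 573, 692 and 702 CPM in KO1, against 15.9, 12.6 and 15.9 CPM at 6 h. In KO2 Por was at 412 to 564 (median 522) CPM at 24 h, against 33.5 to 49.4 (median 39.4) CPM at 6 h. In KI Por was at 218 to 342 (median 293) CPM at 24 h, against 17.5 to 34.5 (median 29.7) CPM at 6 h. Its groups were separate in each cohort, with log2 fold changes of 5.47 ± 0.29 (KO1), 3.62 ± 0.11 (KO2) and 3.35 ± 0.14 (KI). Tnfrsf26, a TNF receptor family member, rose with 4.04 ± 0.43 (KO1), 3.83 ± 0.26 (KO2) and 5.49 ± 0.19 (KI), and the cysteine protease Ctsh with 3.40 ± 0.38 (KO1), 2.72 ± 0.13 (KO2) and 3.07 ± 0.09 (KI). Slc6a19, a neutral amino acid transporter, rose by 3.79 to 4.85 and met no time class.

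Bst1, the ectoenzyme CD157, led the genes that rose at 6 h and rose further. In KO1 Bst1 was at 96.7, 77.5 and 49.5 CPM at 24 h, against 2.63, 3.88 and 5.96 CPM at 6 h. The KO2 levels of Bst1 were 171 to 299 (median 224) CPM at 24 h, against 13.2 to 19.4 (median 16) CPM at 6 h. The KI levels of Bst1 were 156 to 183 (median 167) CPM at 24 h, against 7.55 to 10.4 (median 9.08) CPM at 6 h. Every 24 h sample was above every 6 h sample, and the log2 fold changes were 4.17 ± 0.47 (KO1), 3.86 ± 0.14 (KO2) and 4.20 ± 0.12 (KI). Smpdl3b, a lipid phosphodiesterase, rose further with 3.45 ± 0.39 (KO1), 3.06 ± 0.17 (KO2) and 5.17 ± 0.17 (KI). Fpr1, the formyl peptide receptor, rose with 2.60 ± 0.80 (KO1), 3.56 ± 0.15 (KO2) and 4.41 ± 0.16 (KI) and the scavenger receptor Marco with 2.63 ± 0.80 (KO1), 2.26 ± 0.22 (KO2) and 3.61 ± 0.24 (KI). Without culture 33 the KO1 values were 2.63 for Fpr1 (adjusted p 0.0613) and 1.60 for Marco (adjusted p 0.196), and Marco was at 3.58 without culture 34.

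Of 15 antimicrobial, complement and acute-phase genes, 4 rose and 2 fell in every cohort, where 19% and 13.7% did so over all genes. Slpi, a protease inhibitor, rose with 3.42 ± 0.72 (KO1), 3.82 ± 0.19 (KO2) and 7.22 ± 0.28 (KI), and its KO1 value was 4.41 without culture 35. Saa3, serum amyloid A3, rose by 1.71 to 3.13, and was at 3.05 in KO1 without culture 33 (adjusted p 0.0913). Lcn2, which binds bacterial siderophores, rose by 1.32 to 4.79, with overlapping groups in KO1 and a value there of 0.85 without culture 35 (adjusted p 0.21). The complement receptor C3ar1 rose by 1.33 to 2.66 and ceruloplasmin, Cp, fell (-2.0 to -1.36).

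**Figure D4:**
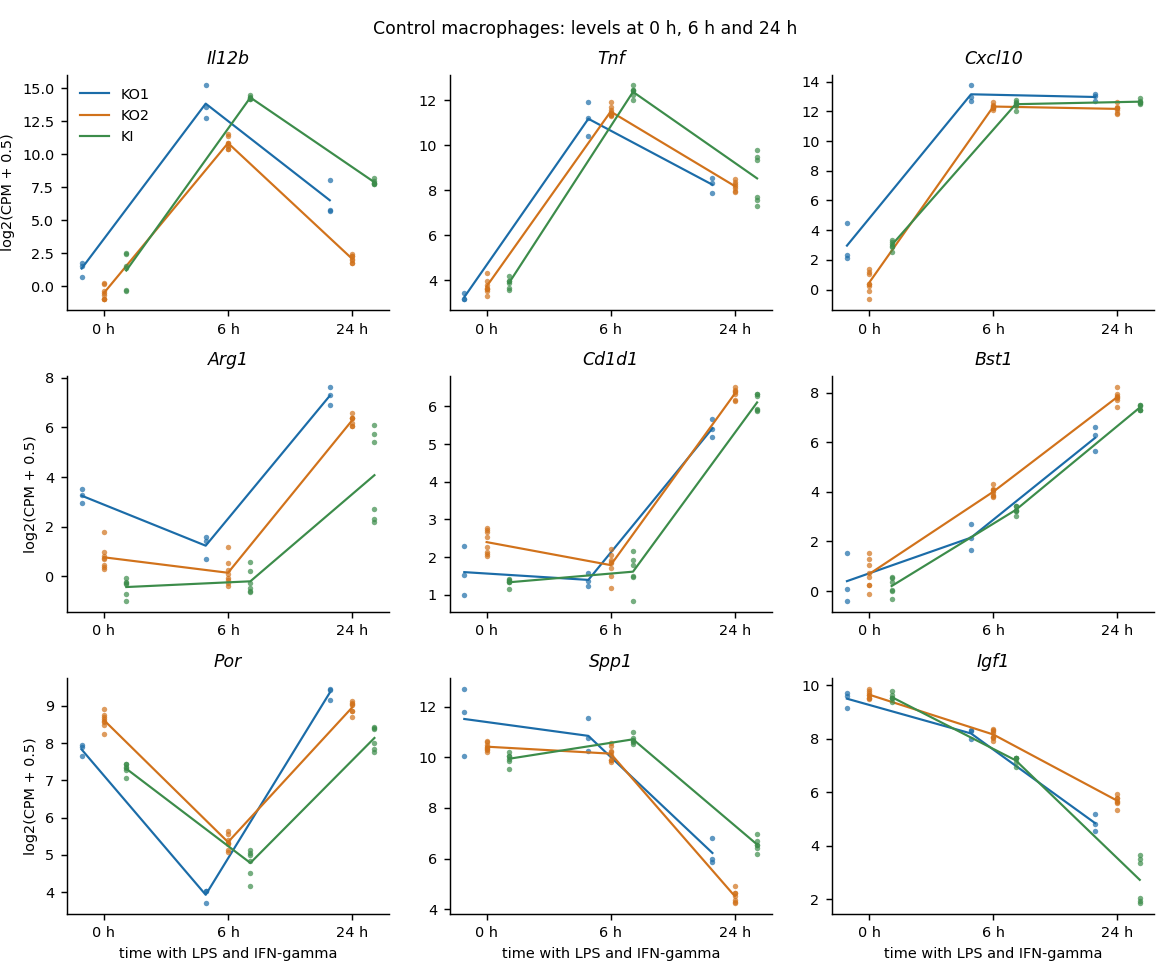
Level in each control sample (y axis, log2 of CPM plus 0.5) at 0 h, 6 h and 24 h for 9 genes; points are samples (KO1 cultures, KO2 and KI libraries) and lines join the means of each cohort. Il12b and Tnf peak at 6 h, Cxcl10 was called in no cohort between 6 h and 24 h, Arg1, Cd1d1, Bst1 and Por are higher at 24 h than at 6 h, and Spp1 and Igf1 are lower.

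Of 20 chaperones and unfolded protein response genes of the endoplasmic reticulum, 11 rose in all 3 cohorts and none fell, where 19% and 13.7% did so over all genes, with medians of 1.23, 1.25 and 0.51. Calr, calreticulin, rose with 1.98 ± 0.37 (KO1), 2.92 ± 0.17 (KO2) and 1.67 ± 0.16 (KI), Creld2 by 1.47 to 2.50 and the chaperone Hyou1 by 1.31 to 2.50. Sdf2l1 rose by 1.25 to 2.55, with 1.04 in KO1 without culture 33 (adjusted p 0.101). Of 30 proteasome subunits, 11 rose and none fell in all 3 cohorts, with medians of 1.24, 0.12 and 0.23 in KO1, KO2 and KI. Cohort by cohort, 24 were higher and none lower in KO1, 14 higher and 8 lower in KO2, and 15 higher and 7 lower in KI. The shares over all tested genes were 28.7% higher and 25.9% lower in KO1, 31% and 28% in KO2, and 33.6% and 31.8% in KI. Psmc1 rose with 3.29 ± 0.24 (KO1), 0.99 ± 0.13 (KO2) and 1.10 ± 0.10 (KI) and Psmb5 with 2.71 ± 0.25 (KO1), 0.87 ± 0.12 (KO2) and 2.07 ± 0.11 (KI), while Psma1 and Psmd2 rose by 0.97 to 1.95 and 0.78 to 1.88. Of 11 cytosolic heat shock proteins, 2 rose and 1 fell in every cohort, near the 19% and 13.7% over all genes. Hsph1 and Hsp90ab1 rose by 1.2 to 2.44 and 0.37 to 1.23. Dnaja1 fell (-1.52 to -0.98), and without culture 34 its KO1 value was -0.86 (adjusted p 0.0593).

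Of 16 genes of the tricarboxylic acid cycle, 8 rose in all 3 cohorts and none fell, and of 17 nuclear genes of oxidative phosphorylation, 8 rose and none fell. The medians were 0.89, 0.44 and 0.26 for the cycle and 0.87, 0.43 and 0.39 for oxidative phosphorylation in KO1, KO2 and KI. Mdh2 and Sdhb, enzymes of the cycle, rose by 1.19 to 2.42 and 1.05 to 1.93, and Fh1 and Mdh1 by 0.85 to 1.17 and 0.73 to 0.98, with 0.77 for Mdh1 in KO1 without culture 33 (adjusted p 0.0813). Cyc1, cytochrome c1, rose by 0.89 to 2.30, Ndufb8 by 0.67 to 1.71, Ndufa9 by 0.55 to 1.12 and Atp5c1 by 0.63 to 1.0. Of the 12 tested genes encoded by the mitochondrial genome, 9 were lower at 24 h in KO2, 11 in KI and 1 in KO1, and none was higher in any cohort or lower in all 3. Over all tested genes 28% were lower in KO2, 31.8% in KI and 25.9% in KO1. The medians of the mitochondrial genes were -0.43, -0.46 and -1.25 in KO1, KO2 and KI, beside the lower mitochondrial share of counts at 24 h given above.

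Glycolysis had 8 of 20 genes higher and 2 lower in every cohort, with medians of 1.17, 0.24 and 1.76 in KO1, KO2 and KI. Gpi1, glucose phosphate isomerase, rose with 2.95 ± 0.28 (KO1), 1.89 ± 0.12 (KO2) and 2.83 ± 0.10 (KI), and Pkm, pyruvate kinase, with 3.04 ± 0.35 (KO1), 1.03 ± 0.12 (KO2) and 2.06 ± 0.11 (KI). The transporter Slc2a6 and the phosphofructokinase Pfkp, which had risen at 6 h, fell (-3.63 to -1.89 and -2.01 to -1.32). In a list of 13 genes of hypoxia-inducible factor and its targets, 5 rose in every cohort. The list medians were 0.00 in KO1, 0.04 in KO2 and 2.25 in KI. The 1 that fell was Hif1a, the gene of the factor itself (-1.12 to -0.86) (-1.0 in KO1 without culture 33, adjusted p 0.0687). Egln3, a prolyl hydroxylase that marks the factor for degradation, rose with 3.52 ± 0.50 (KO1), 3.10 ± 0.23 (KO2) and 6.06 ± 0.37 (KI). P4ha2, Ero1l and Bnip3l rose by 2.05 to 5.73, 1.35 to 4.76 and 1.42 to 3.06, with the highest value of each in KI.

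Of 20 NRF2 and antioxidant genes, 7 rose and 1 fell in every cohort. Hmox1, heme oxygenase 1, rose with 7.22 ± 0.61 (KO1), 1.73 ± 0.12 (KO2) and 4.16 ± 0.13 (KI) (8.03 in KO1 without culture 34). The glutathione peroxidase Gpx1 rose by 1.40 to 2.74 and G6pdx, which supplies NADPH, by 1.31 to 3.36. Nfe2l2, which encodes NRF2, fell (-1.87 to -0.73), with -0.61 in KO1 without culture 34 (adjusted p 0.0886). The list median was below 0 in KO2, at -0.12, and above 0 there under library size alone, at 0.27.

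Among the recovering genes, Arhgap27, a GTPase-activating protein, had been lower at 6 h than at 0 h (-3.80 to -3.31) and rose with 4.02 ± 0.37 (KO1), 3.71 ± 0.23 (KO2) and 3.62 ± 0.16 (KI). Cerk, ceramide kinase, rose with 3.19 ± 0.37 (KO1), 4.07 ± 0.26 (KO2) and 3.41 ± 0.32 (KI) and remained lower than at 0 h (-2.51 to -1.64). The kinesin light chain Klc4 rose with 4.60 ± 0.36 (KO1), 3.21 ± 0.22 (KO2) and 2.99 ± 0.24 (KI), the amino acid transporter Slc43a2 by 2.95 to 4.21 and Nbeal2 by 2.87 to 3.21. Csf1r, the receptor for the M-CSF in the medium, rose by 0.33 to 1.5, with overlapping groups in KI.

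Of 29 autophagy genes tested, 14 rose in all 3 cohorts, 9 of them recovering genes, and 2 fell, with medians of 0.94, 0.34 and 0.44 in KO1, KO2 and KI. Atg7, which activates the ubiquitin-like proteins of the pathway, rose with 1.87 ± 0.25 (KO1), 1.5 ± 0.14 (KO2) and 2.06 ± 0.15 (KI), and the kinase Ulk2 by 1.18 to 1.29. The receptor Calcoco1 rose by 1.21 to 2.20 (1.61 in KO1 without culture 34), whereas the receptor Optn, which had risen at 6 h, fell with -2.44 ± 0.30 (KO1), -3.36 ± 0.17 (KO2) and -3.16 ± 0.12 (KI). Becn1, the gene mutated in the other arms of the study, was 0.13 ± 0.20 in KO1 (adjusted p 0.599), -0.82 ± 0.13 in KO2 (adjusted p 4.84e-07) and -0.24 ± 0.09 in KI (adjusted p 0.0172), and the KI value was 0.08 under library size alone. Of 24 lysosomal genes, 9 rose and 3 fell. Tfeb, the transcription factor of lysosomal genes, rose with 4.87 ± 0.58 (KO1), 1.84 ± 0.20 (KO2) and 2.53 ± 0.34 (KI), and its KO1 value was 8.82 without culture 33 and 4.18 without culture 35. The protease Ctsl fell (-1.40 to -1.11).

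**Figure D5:**
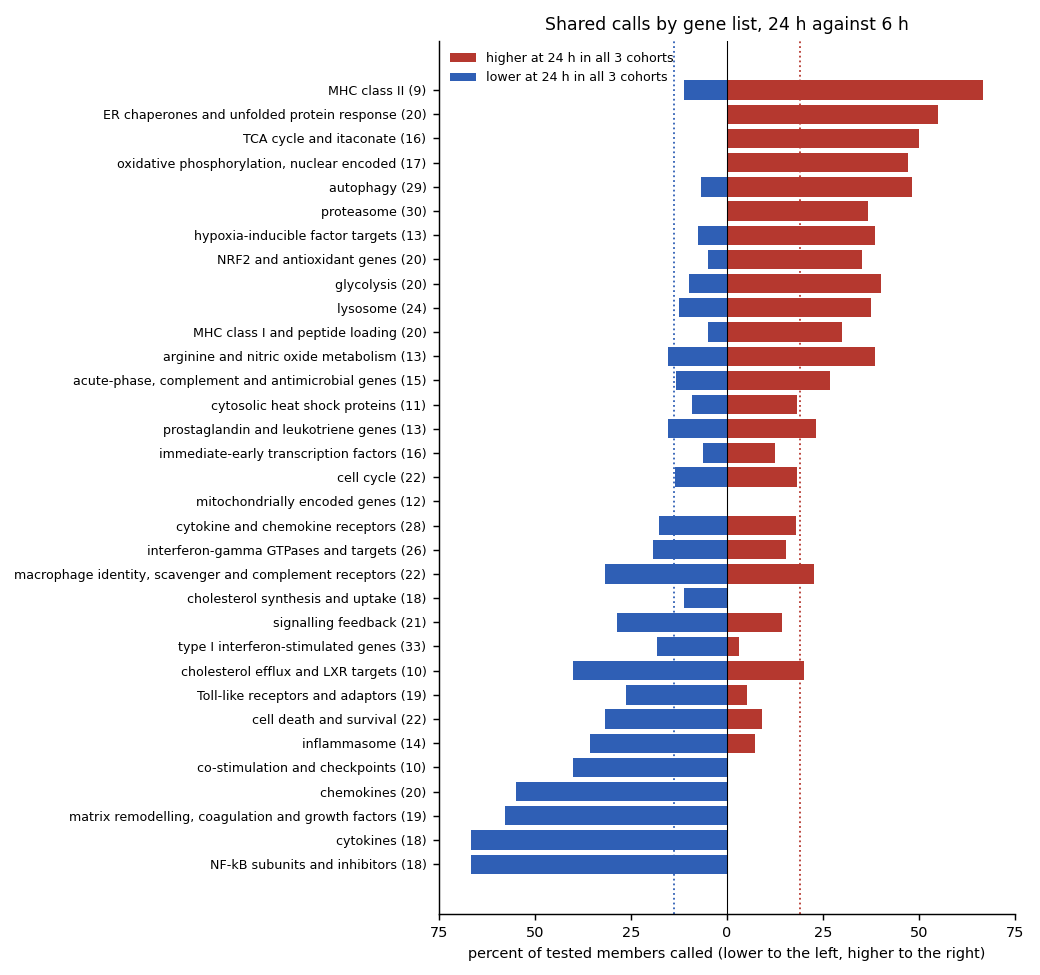
Percent of the tested members of each gene list called at 24 h against 6 h in all 3 cohorts, lower to the left and higher to the right of 0, with the number tested in brackets. Dotted lines mark the 19% higher and 13.7% lower over all 10612 genes.

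Spp1, osteopontin, was first among the late-falling genes whose log2 CPM averaged 3 or more. In the KO1 cultures Spp1 stood at 111, 58.0 and 63.4 CPM at 24 h, against 1714, 2969.6 and 1219.9 CPM at 6 h. In KO2 Spp1 was at 18.6 to 29.9 (median 22.6) CPM at 24 h, against 906 to 1512 (median 1138) CPM at 6 h. In KI Spp1 was at 72.1 to 125 (median 92.9) CPM at 24 h, against 1470.5 to 2046 (median 1629.5) CPM at 6 h. The groups did not overlap in any cohort, and the log2 fold changes were -4.67 ± 0.77 (KO1), -5.67 ± 0.20 (KO2) and -4.15 ± 0.13 (KI) (-4.06 in KO1 without culture 34). Of the 116 late-falling genes, 27 had been higher at 6 h than at 0 h in all 3 cohorts, 64 in 1 or 2 cohorts and 25 in none. Anxa1 and Anxa3, phospholipid-binding annexins, fell, Anxa1 with -3.95 ± 0.51 (KO1), -4.44 ± 0.16 (KO2) and -5.28 ± 0.15 (KI) and Anxa3 within -4.61 to -3.78. Rasgef1b fell (-4.85 to -3.94) and Cav1, caveolin 1, fell (-4.0 to -3.36).

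Matrix and coagulation genes had 11 of 19 members lower at 24 h in all 3 cohorts and none higher, with medians of -1.85, -2.67 and -1.19. Mmp13, a collagenase, fell with -7.02 ± 0.63 (KO1), -7.40 ± 0.22 (KO2) and -6.29 ± 0.27 (KI) (-7.69 in KO1 without culture 33). Edn1, endothelin 1, fell with -3.68 ± 0.74 (KO1), -4.84 ± 0.24 (KO2) and -4.35 ± 0.20 (KI), and its KO1 value lay between -5.04 without culture 33 and -3.01 without culture 35. Hbegf, a ligand of the EGF receptor, fell (-5.58 to -3.05), with -3.22 in KO1 without culture 34. The matrix glycoprotein Tnc, outside this list, fell with -5.76 ± 0.62 (KO1), -5.77 ± 0.25 (KO2) and -6.79 ± 0.32 (KI), and its KO1 value was -6.95 without culture 33 and -4.97 without culture 34. Summed endothelial markers stood at 14.9 to 20.7 CPM at 24 h against 24.1 to 54.8 CPM at 6 h in KO1, 5.20 to 9.08 CPM at 24 h against 14.8 to 19.1 CPM at 6 h in KO2 and 19.1 to 28.4 CPM at 24 h against 56.1 to 81.9 CPM at 6 h in KI, and their part in the result was not tested. The highest marker, Kdr, reached 50.9, 16.3 and 78.0 CPM in KO1, KO2 and KI. Pecam1 reached 17.8, 4.56 and 6.03 CPM there, and Cdh5, Tek and Emcn stayed under 1 CPM everywhere.

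Igf1, insulin-like growth factor 1, was already lower at 6 h than at 0 h and fell further. Its level in KO1 was 22.9, 27.4 and 35.5 CPM at 24 h, against 254, 309 and 316 CPM at 6 h. Its level in KO2 was 39.5 to 60.5 (median 50.6) CPM at 24 h, against 237 to 327 (median 280.4) CPM at 6 h. Its level in KI was 3.14 to 12 (median 6.67) CPM at 24 h, against 123 to 155 (median 153) CPM at 6 h. No 24 h sample overlapped the 6 h group, and the log2 fold changes were -3.35 ± 0.26 (KO1), -2.49 ± 0.11 (KO2) and -4.31 ± 0.19 (KI). Lpl, lipoprotein lipase, fell further with -4.27 ± 0.65 (KO1), -3.99 ± 0.16 (KO2) and -3.20 ± 0.23 (KI) and the lipid receptor Trem2 fell (-3.65 to -2.13). Olfml3 fell (-4.99 to -1.95) and Dpep2 fell (-3.20 to -1.89). Ptgs1, the constitutive cyclooxygenase, fell (-4.61 to -2.75), with KO1 values of -3.40 without culture 33 and -2.53 without culture 34 (adjusted p 0.066).

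Of 22 macrophage identity and scavenger genes, 5 rose and 7 fell. Mrc1, the mannose receptor, fell with -6.93 ± 0.80 (KO1), -5.49 ± 0.40 (KO2) and -6.58 ± 0.38 (KI), and its KO1 value lay between -6.19 without culture 34 and -7.54 without culture 35. Fcrls, a marker of microglia and some tissue macrophages, fell with -5.05 ± 0.53 (KO1), -4.75 ± 0.28 (KO2) and -5.15 ± 0.20 (KI) (-4.32 in KO1 without culture 34), and Axl, a receptor for apoptotic cells, with -3.22 ± 0.29 (KO1), -4.15 ± 0.24 (KO2) and -4.03 ± 0.11 (KI). Fcgr2b, the inhibitory Fc receptor, fell (-1.58 to -0.97), and its KO1 values were -1.05 without culture 33 (adjusted p 0.0862) and -1.08 without culture 34 (adjusted p 0.0963). Cx3cr1, the receptor of Cx3cl1, was called lower in KO2 (-1.17) and KI (-1.24) and gave -0.48 ± 0.60 in KO1 with an adjusted p of 0.517. Of the 7 list genes that fell in every cohort, 1 was a resolving gene. Outside this list, strong resolving genes included Gpr84, a receptor for medium-chain fatty acids, with -4.83 ± 0.46 (KO1), -4.53 ± 0.14 (KO2) and -4.99 ± 0.25 (KI). Dgka, a diacylglycerol kinase, fell with -4.76 ± 0.47 (KO1), -5.04 ± 0.23 (KO2) and -4.63 ± 0.22 (KI), and Armcx6 with -5.20 ± 0.59 (KO1), -5.59 ± 0.28 (KO2) and -5.60 ± 0.27 (KI).

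In cholesterol and lipid handling, Ch25h, which makes 25-hydroxycholesterol, fell with -4.40 ± 0.40 (KO1), -4.53 ± 0.17 (KO2) and -5.27 ± 0.19 (KI) after having risen at 6 h. Among 10 cholesterol efflux and LXR genes 2 rose and 4 fell. Nr1h3, which encodes LXRα, rose by 1.2 to 1.95 and Pltp fell (-2.63 to -1.10). The exporter Abcg1 fell (-1.53 to -1.12), with KO1 values of -1.34 without culture 33 (adjusted p 0.115) and -1.41 without culture 34 (adjusted p 0.086). Of 18 genes of cholesterol synthesis and uptake, Idi1 and Hmgcs1 fell (-3.49 to -1.72 and -2.15 to -0.73) and none rose. The KO1 call of Idi1 was lost without culture 34, at -1.31 (adjusted p 0.0503), and that of Hmgcs1 without culture 34 and without culture 35, at -0.63 and -0.55 (adjusted p 0.192 and 0.244). Of 13 prostaglandin and leukotriene genes 3 rose and 2 fell in every cohort, close to the 19% and 13.7% over all genes. The prostaglandin E2 receptor Ptger4 fell with -4.33 ± 0.35 (KO1), -3.35 ± 0.21 (KO2) and -4.44 ± 0.14 (KI), while the receptor Ptger2 rose by 1.45 to 2.96, the leukotriene hydrolase Lta4h by 1.75 to 2.05 and the phospholipase Pla2g4a by 1.02 to 2.67.

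Of 22 cell cycle genes 4 rose and 3 fell in every cohort, close to the 19% and 13.7% over all genes. Mki67, a marker of dividing cells, fell with -3.97 ± 0.62 (KO1), -2.72 ± 0.29 (KO2) and -4.24 ± 0.22 (KI) and the spindle factor Tpx2 fell (-2.95 to -2.26), while E2f1 rose with 3.47 ± 0.29 (KO1), 1.95 ± 0.19 (KO2) and 2.88 ± 0.24 (KI) and Ccne1, cyclin E1, by 1.42 to 2.08. The KO1 value of Ccne1 was 1.61 without culture 33 (adjusted p 0.093), 1.33 without culture 34 (adjusted p 0.181) and 2.63 without culture 35. Of 22 cell death and survival genes 7 fell and 2 rose. Bcl2a1d, Bcl2a1b and Bcl2a1a, survival factors induced by NF-κB, fell (-5.46 to -3.81, -4.16 to -3.21 and -3.70 to -2.52), and as near-identical copies their separate values are uncertain. Cflar, an inhibitor of caspase 8, fell with -2.08 ± 0.26 (KO1), -1.77 ± 0.12 (KO2) and -1.73 ± 0.12 (KI).

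The size of the change differed between cohorts for many genes. A test of equal 24 h against 6 h change in the 3 cohorts called 5245 of 12537 genes (41.8%), among them 1690 of the 3462 shared changes and all 200 genes called with differing signs. KO1 libraries held the Y-linked Ddx3y at both times, while KO2 and KI libraries held Xist instead, so sex and every other feature of the cohorts cannot be told apart here. Of the genes called with differing signs, Sfpi1, an older symbol of the gene for the transcription factor PU.1, was higher at 24 h in KO1 (1.74 ± 0.24) and lower in KO2 (-1.54 ± 0.12) and KI (-1.47 ± 0.15). Isg15, a ubiquitin-like interferon-induced protein, gave 1.75 ± 0.52 (KO1), -1.16 ± 0.22 (KO2) and -1.15 ± 0.23 (KI), with overlapping groups in KO2. Cyth4, an ARF exchange factor, and Lrrc25 had the same signs, with 1.05 ± 0.26 (KO1), -1.61 ± 0.12 (KO2) and -1.07 ± 0.10 (KI) and 1.07 ± 0.22 (KO1), -1.26 ± 0.11 (KO2) and -1.04 ± 0.11 (KI). The potassium channel Kcnn4 was lower in KO2 alone, at 1.16 ± 0.30 (KO1), -1.10 ± 0.11 (KO2) and 1.46 ± 0.16 (KI), and Limd2 was lower in KI alone, at 2.26 ± 0.25 (KO1), 1.05 ± 0.11 (KO2) and -1.38 ± 0.13 (KI).

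The mutant macrophages allowed a test of whether the change from 6 h to 24 h differed by genotype. No gene in KO1 passed it (0% of 13693, with 747 at an unadjusted p under 0.05 and 15 called with no filter on low counts), while 1056 of 10794 did in KO2 (9.78%) and 504 of 11500 in KI (4.38%). KO1 had only 3 cultures per control group. The standard error of this difference was 0.58 in KO1 against 0.18 in KO2 for Ccl7, and 0.38 against 0.11 for Il7r. The lack of calls in KO1 therefore does not show that its genotypes changed alike. A KO1 mutant library at 6 h with conflicting times in its labels was kept. Of the shared changes, 482 differed between genotypes in KO2, and 431 of these kept the same sign in the mutant. In KI 211 differed, and 201 kept the same sign. Ccl4 changed by -0.57 in the KO2 mutant, against -3.16 in the KO2 controls, and Ccl7, a monocyte attractant, by 2.31 in the mutant, against -0.02 in the controls. Lcn2 changed by 4.36 in the KO2 mutant, against 2.04 in the controls, Fcgr2b by 0.24 in the mutant, against -1.58 in the controls, and the receptor Il7r by -0.56 in the mutant, against -1.86 in the controls. In the KI cohort Gatm, which makes the creatine precursor guanidinoacetate, changed by -4.58 in the mutant, against -2.69 in the controls. Ptpn1, a tyrosine phosphatase, changed by -1.74 in the KI mutant, against -0.32 in the controls, and Ggta1, a galactosyltransferase, by 1.08 in the mutant, against 2.39 in the controls. Sc4mol, an older symbol of a sterol oxidase gene, changed by 1.15 in the KI mutant, against 0.00 in the controls, and Itm2c by -0.78 in the mutant, against 0.34 in the controls.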

How the data were processed

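Gene counts per library were read as the authors deposited them: whole numbers with no normalization. The submitters' processing notes name TopHat, HTSeq and mm10, with no versions. Per the labels' protocols, libraries were made by Smart-Seq2 with oligo-dT priming, so strand and unique molecules were not recorded, and counting error cannot be told from amplification.

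Repeats of a KO1 sample number were summed. Each cohort was fitted alone with edgeR 4.0.16 (R 4.3.3, limma 3.58.1) over its 6 groups of genotype and time, after filterByExpr and TMM scaling, with the quasi-likelihood test and Benjamini-Hochberg adjustment over all genes tested. Standard errors are the log2 fold change divided by the square root of F. The fits were tested on simulated counts.

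The libraries follow from their labels, but the comparison and the gene lists were chosen with earlier results of these data known. Genes are named by rule: the 10 highest and 10 lowest shared changes by smallest size whose log2 CPM averaged 3 or more, the first 6 of each time class, up to 4 shared members per list, up to 6 genes called with differing signs, the 5 smallest p per cohort for the genotype difference where any passed, and a set of well-known inflammatory genes. Bst2, Igtp, Irak3 and Tsc22d3 were added after their values were seen. Of the genes that the rule names, 2 are not reported here. Of 666 list genes 607 were tested in all 3 cohorts and 10 were not found under the symbol listed. Genes deposited under another symbol, such as Sfpi1 for Spi1 and Sc4mol for Msmo1, were not counted in their lists. Alternatives were DESeq2 1.42.0, its size factors, library size alone, no filter, fewer groups in the fit, the replicate block, summed libraries, leaving out each KO1 culture, and leaving out libraries with conflicting labels. After seeing the data, 2 more were added: leaving out 2 libraries that stand apart, and summing KI by odd and even number. No pair of control libraries looked like copies: over 151 pairs chi-square over its degrees of freedom was 2.79 or more. Beyond the TopHat and HTSeq names, settings are not given in the sources used here.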

Additional observations from a re-analysis of the deposited data

Results flagged for a closer look

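In groups of 4 to 10 samples, 22 of 348 looked at (6.32%, over 88 genes) had a sample whose gap to the nearest other was large for the group's range, where chance gives about 1 in 20. Library 5 of the KI controls at 6 h accounted for 9 of them. It was low in Ccl5 (11358 CPM, others 15351 to 17511), Ciita (43.7 CPM), Csf1r (1322 CPM), Cyth4 (87 CPM), Gpr84 (432 CPM), Il27 (1708 CPM, others 3070 to 3646), Lrrc25 (82.1 CPM) and Trem2 (102 CPM), and high in Mmp13 (28920 CPM, others 20508 to 23155). Library 2 of the KO2 controls at 6 h was low in Cyth4 (183 CPM), Irf7 (3063 CPM), Mmp13 (4427 CPM) and Socs3 (1512 CPM). Elsewhere at 6 h in KO2, Nfkbia was high in library 4 (4126 CPM), Il23a was high in library 9 (1.0 CPM) and Olfml3 low there (6.0 CPM). At 24 h in KO2, Cav1 was high in library 2 (51.9 CPM), Rasgef1b high in library 1 (20.0 CPM), Ccl4 low in library 8 (25.9 CPM), and library 9 was high in Ccl9 (79.4 CPM) and low in Tnfaip3 (18 CPM, others 50.5 to 81.7). At 24 h in KI, Il23a was high in library 6 (0.353 CPM).

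The change from 6 h to 24 h differed between cohorts by edgeR's test of equal changes for the 6 named genes with differing signs, with adjusted p of 1.58e-13 for Sfpi1, 2.37e-06 for Isg15, 7.01e-14 for Kcnn4, 1.27e-11 for Cyth4, 8.32e-18 for Limd2 and 2.92e-11 for Lrrc25. It also differed in size for 105 of the 164 named genes that were called alike in all 3 cohorts.

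Between genotypes, the mutant change minus the control change on the log2 scale was 2.59 for Ccl4, 2.33 for Ccl7, 2.32 for Lcn2, 1.82 for Fcgr2b and 1.30 for Il7r in KO2. In KI it was -1.31 for Ggta1, -1.43 for Ptpn1, -1.89 for Gatm, 1.15 for Sc4mol and -1.12 for Itm2c.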

How the results depend on the processing

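Over 14 alternatives, 83.7% to 97.7% of the 3462 shared changes were called again and 0 were called in the opposite direction in all 3 cohorts. Such a reversal needs the sign to turn in every cohort at once. It could not arise in alternatives that left the fit of any cohort unchanged. Shared higher genes numbered 1747 to 2653 and shared lower genes 976 to 1600. Under library size alone KO2 had 5231 higher and 1758 lower genes, 124 genes had differing signs, and the classes held 48 genes rising further, 88 late-rising, 2313 recovering, 472 resolving and 99 falling further. Among named values called under it or with TMM, the sign turned for Ccl7 in KO2 (0.36), Becn1 in KI (0.0827), Irf1 in KI (0.0383) and Ptpn1 in KI (0.0177). Sign changes of values called under neither were not counted. Under library size alone the median also turned in at least 1 cohort for the immediate-early, cytokine receptor, Toll-like receptor, IFN-γ, arginine, prostaglandin, hypoxia, NRF2, heat shock, LXR and cell cycle lists. With only the 2 groups compared in the fit, 30 genes fell further. With no filter 15 genes differed between genotypes in KO1. Leaving out 1 KO1 culture gave 117 to 181 genes with differing signs, 48 to 72 rising further, 70 to 117 late-falling and 30 to 46 falling further. With a replicate block 3367 of the 3462 shared changes were called again (97.3%). Deviations of same-numbered samples correlated at -0.00 to 0.24 (KO1), -0.12 to 0.06 (KO2) and 0.02 to 0.12 (KI), and 1 of 3 (KO1), 1 of 7 (KO2) and 2 of 6 (KI) samples correlated best with their own number, so the numbers were not taken to pair samples. Of 5076 values of named shared genes 61 lost their call, in 31 genes. Genes under the count filter in any cohort were not tested for shared changes. The cause of these shifts was not tested.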

Other observations

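Several well-known regulators were called in some cohorts and not in others. Dusp1, a MAP kinase phosphatase, was called lower in KO2 and KI, with log2 fold changes of 24 h over 6 h of 0.18 ± 0.39 (KO1), -3.36 ± 0.13 (KO2) and -0.74 ± 0.15 (KI). Zfp36, which destabilises cytokine mRNAs, was called lower in KO2 alone, at -0.75 ± 0.33 (KO1), -1.36 ± 0.17 (KO2) and -0.49 ± 0.26 (KI). The stress factor Atf3 was called higher in KO1 and KI, at 1.04 ± 0.29 (KO1), 0.18 ± 0.10 (KO2) and 1.30 ± 0.10 (KI). Egr1, an immediate-early factor, was called in none, at 2.07 ± 1.11 (KO1), 0.76 ± 0.36 (KO2) and 1.06 ± 0.53 (KI), and at 2.77 in KO1 without culture 33. Socs1, an inhibitor of JAK kinases, was called higher in KO1 and KO2, at 3.05 ± 0.31 (KO1), 0.69 ± 0.17 (KO2) and 0.70 ± 0.37 (KI). Irf7 was called in KI alone, at 1.56 ± 0.95 (KO1), 0.12 ± 0.14 (KO2) and 0.55 ± 0.12 (KI), with 2.21 in KO1 without culture 35. Arginase 2, Arg2, was called lower in KO2 and higher in KI, at 0.26 ± 0.63 (KO1), -1.10 ± 0.19 (KO2) and 0.70 ± 0.21 (KI), with 1.41 in KO1 without culture 35.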
